A study of Mus musculus with 8 samples.

Results

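The alpha-2,6 sialyltransferase genes of the mouse were described in the hippocampus of T29-1 Cre and wild type (WT) mice. They are the 8 members of the St6gal and St6galnac families, St6gal1, St6gal2 and St6galnac1 to St6galnac6, and were taken by name from a table of 45806 distinct gene names. All 8 names were found, and 7 of them passed the filter on low counts, among 15996 genes tested. T29-1 Cre mice were hemizygous carriers (Cre+/-) of Tg(Camk2a-cre)T29-1Stl, a transgene in which Cre recombinase is driven by the Camk2a promoter, which is active in excitatory neurons of the forebrain. WT mice carried no transgene. Both groups were C57BL/6J, 9 weeks old and sampled as whole hippocampus, with 4 libraries each, and no floxed target or treatment is named in the labels. The family was taken up because St6gal2 was the top gene of the genotype comparison in these same libraries. The genotype values of St6gal2 are therefore given as a description, with no test, while its relatives were chosen by name.

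Sialyltransferases are Golgi enzymes that move sialic acid from CMP-sialic acid to the ends of glycan chains. The alpha-2,6 enzymes form 2 groups. St6gal enzymes cap terminal galactose, mainly on N-glycans and free oligosaccharides. St6galnac enzymes link sialic acid to N-acetylgalactosamine, on O-glycans of glycoproteins or on gangliosides, the sialic acid-bearing glycolipids that are abundant in neuronal membranes. In brain, the best known sialic acid polymer is the alpha-2,8-linked polysialic acid of the adhesion protein NCAM, which other enzymes make.

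The sequences just before the start sites of both St6gal genes are shown because 1 gene differed between the genotypes and its closest relative did not pass the test. Any part of these sequences in that difference was not tested. They are the 250 bases upstream of the first annotated start, from RefSeq on GRCm38.p6, with capitals marking a GC box (GGGCGG) or a CCAAT box (CCAAT), searched on both strands. That table holds a window for 5 of the 8 members.
St6gal2, chr17:55445132-55445381, plus strand: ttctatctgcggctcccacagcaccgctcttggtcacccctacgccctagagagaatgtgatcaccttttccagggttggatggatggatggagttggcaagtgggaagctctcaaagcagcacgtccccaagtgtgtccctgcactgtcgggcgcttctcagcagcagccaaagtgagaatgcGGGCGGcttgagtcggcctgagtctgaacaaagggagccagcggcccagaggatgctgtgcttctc
St6gal1, chr16:23224490-23224739, plus strand: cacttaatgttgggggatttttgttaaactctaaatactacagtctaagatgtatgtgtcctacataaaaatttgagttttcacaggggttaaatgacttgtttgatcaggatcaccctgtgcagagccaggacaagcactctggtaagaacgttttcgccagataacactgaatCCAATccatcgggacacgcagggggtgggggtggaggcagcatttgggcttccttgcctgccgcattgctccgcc
The St6gal2 window holds 1 GC box, which starts 66 bases before the start site, and the St6gal1 window 1 CCAAT box, 75 bases before it. Of all 32851 such windows in the table, 32.7% hold a GC box and 33.9% a CCAAT box on either strand, so both are common. Neither window holds a TATA box (TATAAA), which 12.4% of windows do. The St6gal2 window had a GC content of 58.4% and 10 CpG dinucleotides, and the St6gal1 window 47.2% and 6, where the medians of all windows were 52.4% and 6. St6gal1 also has later annotated starts, whose windows are not printed. The window at chr16:23225771-23226020 had 52.8% and 10, the same CpG count as St6gal2. The window at chr16:23290220-23290469 had 49.6% and 5. Both of these hold CCAAT boxes as well.

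The transcripts of St6gal2 differ enough in sequence from those of its relatives to be told apart over 100 bases. The stretch where the coding sequences of St6gal2 and St6gal1 are most alike without a gap is shown, over 60 bases, with capitals marking the bases that differ. It covers coding bases 1194 to 1253 of St6gal2 and 861 to 920 of St6gal1, counted from the start codon in GENCODE M21.
St6gal2: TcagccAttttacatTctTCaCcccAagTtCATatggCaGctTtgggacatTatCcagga
St6gal1: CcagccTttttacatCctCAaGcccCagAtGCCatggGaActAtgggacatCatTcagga
Even here 16 of 60 bases differ, and the longest exact stretch that the coding sequence of St6gal2 shares with that of any other member is 13 bases, with St6galnac6. Of 7274 windows of 100 bases in the annotated transcripts of St6gal2, 0 occur in a transcript of another gene on either strand. The same held for St6galnac3 and St6galnac4, and 2.12% of windows were shared for St6gal1 (with BC106179, on the opposite strand), 0.22% for St6galnac5 (with Pigk) and 0.361% for St6galnac6. The share was 12.03% for St6galnac2, which shares exon sequence with 1810032O08Rik on the opposite strand and with a second annotated gene of its own name, so its values are the least certain of those with counts.

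St6gal2 lies on the plus strand of chromosome 17 (55445382 to 55514581 in GRCm38) and has 4 annotated transcripts. Its enzyme prefers oligosaccharides as acceptors and is known from human and mouse as the St6gal form of restricted tissue distribution. It was at 68.8, 60.5, 82.1 and 53.4 CPM (reads relative to the TMM-scaled library size) in T29-1 Cre replicates 1 to 4, against 20.4, 19.6, 17.8 and 15.5 CPM in WT replicates 1 to 4. All 4 T29-1 Cre libraries lay above all 4 WT libraries (among all tested genes, the groups did not overlap for 1.81%), and the highest of them was replicate 3. The means were 66.2 ± 12.3 CPM in T29-1 Cre and 18.3 ± 2.15 CPM in WT (SD, n = 4 each). This is a log2 fold change of 1.85, with an SE of 0.119 and a 95% interval of 1.598 to 2.11. The values rest on 1407 to 2273 reads in T29-1 Cre libraries and 371 to 545 in WT libraries. A second row named St6gal2 held 0 counts in all 8 libraries.

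**Figure D1:**
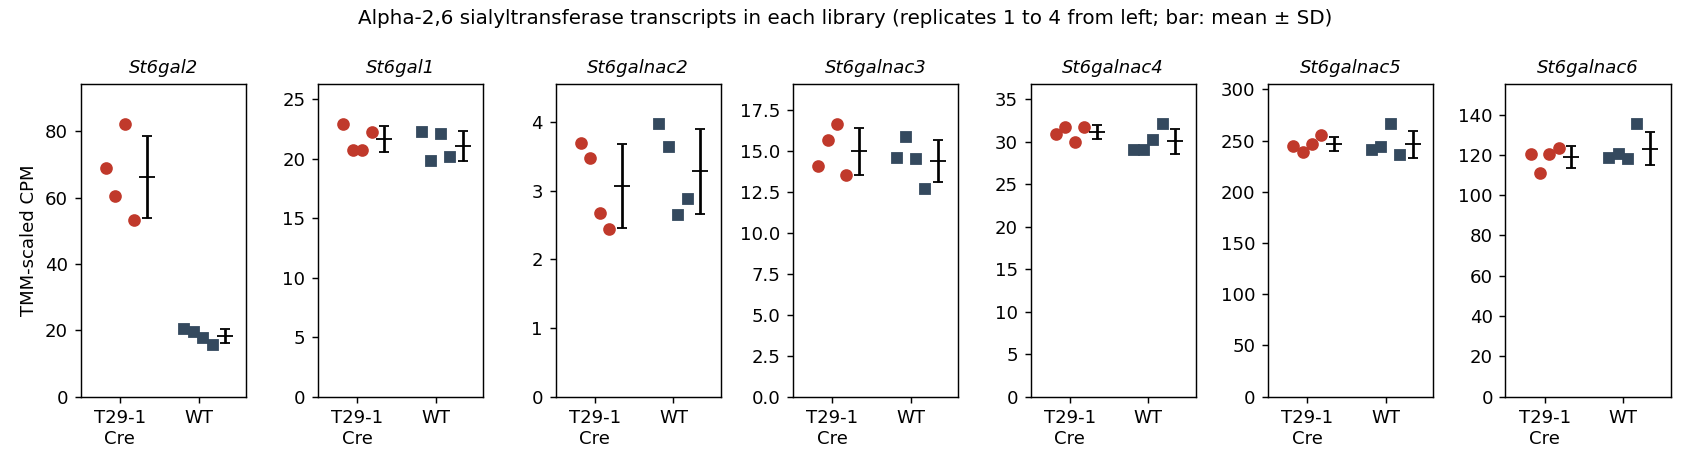
Expression of the 7 members with counts, in TMM-scaled CPM on linear axes that start at 0, for T29-1 Cre (circles) and WT (squares), with 1 point per library and the mean ± SD beside them (n = 4 each). St6gal2 is the member whose groups stand apart, at 53.4 to 82.1 CPM in T29-1 Cre and 15.5 to 20.4 CPM in WT, and the groups of the other members overlap.

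St6gal2 was the one member called, 1 of 7 tested. Over all 15996 genes 0.00625% were called (edgeR quasi-likelihood test, adjusted p under 0.05), but nothing is read from this, because that contrast chose the gene. None of the 6 tested relatives was called, and 0 of them had an unadjusted p under 0.05. Their log2 fold changes ran from -0.09 to 0.06 with a median of 0.02, where the median of all tested genes was 0.00. The 95% intervals of the relatives lay between 0.721-fold and 1.22-fold. The lower limit for St6gal2 was 3.03-fold, which is a description and no test against the relatives, because that contrast chose the gene. The log2 fold change in the authors' deposited table was 1.85 for St6gal2 and -0.09 to 0.06 for the 6 relatives.

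**Figure D2:**
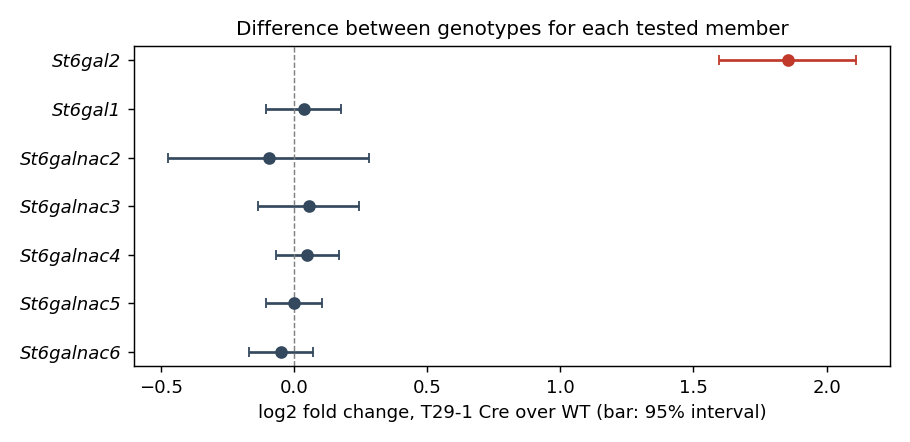
Log2 fold change of each tested member in T29-1 Cre over WT, with its 95% interval from the edgeR quasi-likelihood fit (4 libraries per genotype). The interval of St6gal2, 1.598 to 2.11, is a description, because this contrast chose the gene. The intervals of the 6 relatives each include 0.

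St6gal1, the main alpha-2,6 sialyltransferase of most tissues, acts on the same galactose ends as St6gal2. It was at 22.9, 20.8, 20.7 and 22.2 CPM in T29-1 Cre replicates 1 to 4, against 22.3, 19.8, 22.1 and 20.2 CPM in WT replicates 1 to 4. The groups overlapped almost wholly. Its log2 fold change was 0.04 (SE 0.0652, 95% interval -0.10 to 0.18, edgeR adjusted p = 0.998), so that a rise above 1.13-fold or a fall below 0.931-fold lies outside the interval.

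Levels between genes were compared per kb of annotated exon, that is, as CPM divided by the length of all exons of a gene joined. Per kb, St6gal2 was at 8.98 ± 1.67 in T29-1 Cre and 2.48 ± 0.292 in WT, and St6gal1 at 4.41 ± 0.220 in T29-1 Cre and 4.29 ± 0.259 in WT (CPM per kb, SD, n = 4 each). The order of these 2 genes thus differed between the genotypes, with St6gal2 (7.24 to 11.1) above St6gal1 (4.22 to 4.66) in every T29-1 Cre library and below it in every WT library (2.10 to 2.76 against 4.03 to 4.53). St6gal2 made up 66.7%, 66.0%, 72.5% and 61.5% of the summed level per kb of both genes in T29-1 Cre replicates 1 to 4, against 37.9%, 39.7%, 34.9% and 33.9% in WT replicates 1 to 4. This order in WT depends on the gene model: with the median length of coding transcripts in place of all exons, the mean share of St6gal2 was 78.8% in T29-1 Cre and 51.7% in WT.

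Among all members, St6galnac5 and St6galnac6 had the highest levels per kb in both genotypes. St6galnac5 forms alpha-series gangliosides such as GD1alpha and is expressed mainly in brain in the mouse. It was at 41.1 ± 1.10 CPM per kb in T29-1 Cre and 41.1 ± 2.22 in WT (SD, n = 4 each). St6galnac6, which also makes alpha-series gangliosides and has a broader substrate range, was at 24.7 ± 1.13 CPM per kb in T29-1 Cre and 25.6 ± 1.68 in WT. The order of these 2 turned with the length of the longest transcript, which gave 46.9 for St6galnac6 and 43.5 for St6galnac5 in T29-1 Cre, and 48.5 and 43.5 in WT. With the median length of coding transcripts the gap was wider. The values were 117 for St6galnac6 and 43.5 for St6galnac5 in T29-1 Cre, and 121 and 43.5 in WT. For St6galnac6 that length is 1013 bases, where its coding sequence alone has 1005, so these values rest on short annotated transcripts.

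Below them in T29-1 Cre came St6gal2, St6galnac4, St6gal1, St6galnac3 and St6galnac2, and in WT St6galnac4, St6gal1, St6gal2, St6galnac3 and St6galnac2. Neighbours in these orders did not overlap over the 4 libraries of a genotype, with the exception of St6galnac4 and St6gal1, which overlapped in both. The place of St6galnac3 depends on the gene model. With all exons it was at 1.67 CPM per kb in T29-1 Cre and 1.603 in WT. With the median length of coding transcripts it was at 25.5 in T29-1 Cre and 24.5 in WT. That length is 588 bases, shorter than its coding sequence of 915 bases, so these higher values rest on short annotated transcripts. By this length St6galnac3 ranked above St6galnac4 and St6gal1 in both genotypes. It ranked above St6gal2 in WT and was nearly level with it (25.4) in T29-1 Cre. Per kb of all exons, St6gal2 ranked 3 in T29-1 Cre and 5 in WT. Its share of the summed level per kb of all members was 10.4% ± 1.76 in T29-1 Cre and 3.10% ± 0.404 in WT (SD, n = 4 each). The sum of the other members was 77.2 ± 2.11 CPM per kb in T29-1 Cre and 77.7 ± 1.82 in WT (SD, n = 4 each), and the ranges overlapped.

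**Figure D3:**
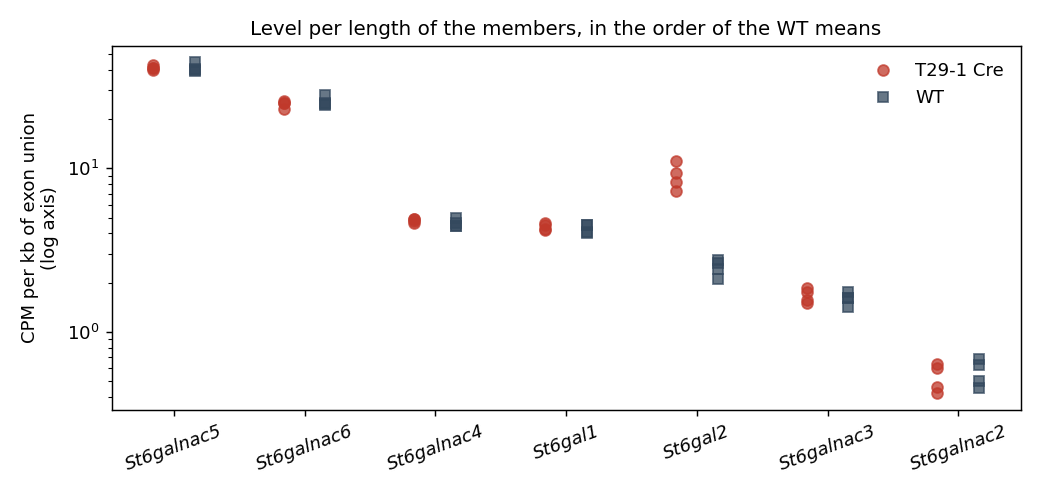
Level of the 7 members with counts in CPM per kb of annotated exon, on a log axis, with 1 point per library for T29-1 Cre (circles) and WT (squares). Members stand in the order of their WT means. St6gal2 lies at 7.24 to 11.1 in T29-1 Cre, above St6gal1 and St6galnac4, and at 2.10 to 2.76 in WT, below them.

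St6galnac5 lies on chromosome 3 (152817081 to 152982246) and has the most reads of the family, 5565 to 6836 in T29-1 Cre libraries and 5641 to 8144 in WT libraries. It was at 245, 239, 247 and 255 CPM in T29-1 Cre replicates 1 to 4, against 241, 244, 266 and 236 CPM in WT replicates 1 to 4. No library stood out in T29-1 Cre, and the WT range enclosed the T29-1 Cre range. The log2 fold change was 0.00 (SE 0.049, edgeR adjusted p = 0.9995), with a 95% interval of 0.930-fold to 1.08-fold. Its exons overlap those of Pigk on the opposite strand over 108 bases, and Pigk, a subunit of the GPI transamidase, had a log2 fold change of -0.02 (SE 0.0509, edgeR adjusted p = 0.998).

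St6galnac6 was at 120, 111, 121 and 124 CPM in T29-1 Cre replicates 1 to 4, against 119, 121, 118 and 135 CPM in WT replicates 1 to 4. WT replicate 4 was the highest of the 8 libraries and T29-1 Cre replicate 2 the lowest. The log2 fold change was -0.05 (SE 0.0558, edgeR adjusted p = 0.998) with all libraries and 0.00 without WT replicate 4. WT replicate 4 also stood apart over all genes, with a score of -33.4 on the first principal component against -0.69 to 8.74 in the other 7 libraries. For St6gal2 the log2 fold change was 1.79 without WT replicate 4.

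St6galnac4, which sialylates the core 1 disaccharide of O-glycans once it carries alpha-2,3-linked sialic acid, lies head to tail with St6galnac6 on chromosome 2. Only 10 bases separate the end of St6galnac4 (32587095 to 32599698) from the start of St6galnac6 (32599709 to 32620806), on the same strand. St6galnac4 was at 30.9, 31.7, 30.0 and 31.8 CPM in T29-1 Cre replicates 1 to 4, against 28.96, 28.96, 30.2 and 32.01 CPM in WT replicates 1 to 4. The log2 fold change was 0.05 (SE 0.0548, edgeR adjusted p = 0.998). This neighbouring pair had values of opposite sign, neither of them past the threshold.

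St6galnac3 makes alpha-series gangliosides and sialylated core 1 O-glycans, and lies next to St6galnac5 on chromosome 3 (153198266 to 153725174), 216019 bases away. It was at 14.1, 15.7, 16.6 and 13.5 CPM in T29-1 Cre replicates 1 to 4, against 14.6, 15.9, 14.5 and 12.7 CPM in WT replicates 1 to 4. In T29-1 Cre its highest library was replicate 3 and its lowest replicate 4, as for St6gal2. The match was partial, because T29-1 Cre replicate 1 lay below replicate 2 for St6galnac3 and above it for St6gal2. In WT, St6galnac3 was highest in replicate 2 and St6gal2 in replicate 1, and both were lowest in replicate 4. The log2 fold change of St6galnac3 was 0.06 (SE 0.0875, edgeR adjusted p = 0.998), and 0.00 when either T29-1 Cre replicate 3 or WT replicate 4 was left out.

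The last pair lies on chromosome 11, 70156 bases apart. St6galnac2 acts on N-acetylgalactosamine of O-glycans and was the lowest member with counts, with 65 to 98 reads in T29-1 Cre libraries and 69 to 106 in WT libraries. It was at 3.70, 3.48, 2.67 and 2.44 CPM in T29-1 Cre replicates 1 to 4, against 3.97, 3.63, 2.64 and 2.88 CPM in WT replicates 1 to 4. The groups overlapped, and its log2 fold change was -0.09 (SE 0.175, 95% interval -0.47 to 0.28, edgeR adjusted p = 0.998), the widest interval of the relatives. St6galnac1, the enzyme that forms the sialyl-Tn antigen in epithelia, had 0 counts in each of the 8 libraries. A count of 0 allows up to 3 counts, or 0.0979 to 0.129 CPM by library, which covers counting error only. Of the 100-base windows in its transcripts, 22.98% also occur in a transcript of Gm11735.

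In T29-1 Cre the libraries of St6gal2 lay farther apart than those of nearly all genes of similar level, and in WT they did not stand out in this way. The SD of its log2 CPM was 0.265 in T29-1 Cre and 0.174 in WT (n = 4 each). In T29-1 Cre 99.5% of the 4327 genes whose mean level was within 2-fold of St6gal2 had a lower SD, their median being 0.0572. In WT 82.5% of 4506 such genes had a lower SD, with a median of 0.110. Leaving out any 1 library, a repeat added after the values were seen, gave a share of 98.1% to 99.6% in T29-1 Cre and 66.6% to 87.6% in WT, the lowest of these without WT replicate 4 (SD 0.0994). For the 6 tested relatives the share ran from 15.1% for St6galnac4 to 81.4% for St6galnac2 in T29-1 Cre, and from 25.0% for St6galnac4 to 73.3% for St6galnac2 in WT. The difference in spread between the genotypes was not tested.

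**Figure D4:**
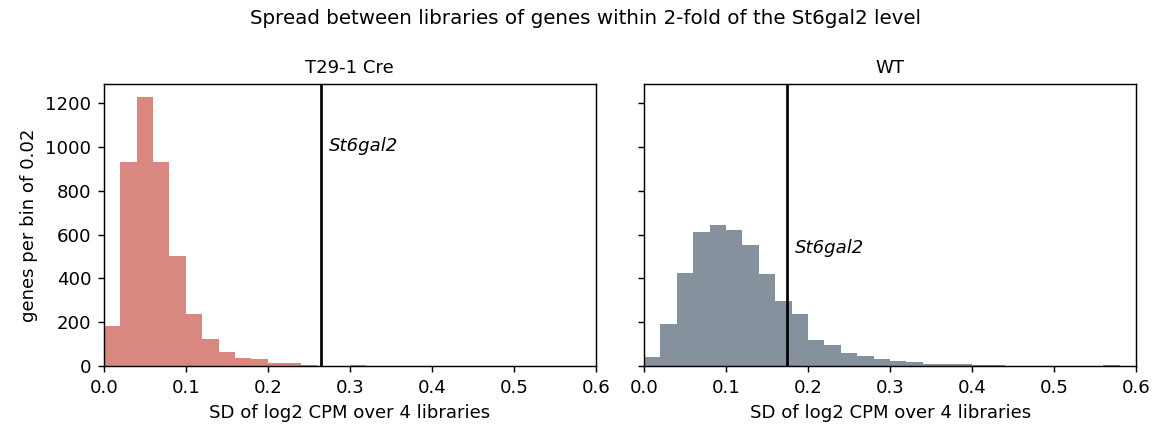
Number of genes by the SD of their log2 CPM over 4 libraries, for genes whose mean level was within 2-fold of St6gal2, in T29-1 Cre (left) and WT (right), with St6gal2 as a vertical line. St6gal2 lies at 0.265 in T29-1 Cre, in the far tail, and at 0.174 in WT, on the upper shoulder.

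Markers of the cell types in the tissue were set beside this spread. In bulk RNA, fewer cells of a type and less RNA per cell cannot be told apart. Dentate granule cell markers (4 of 4 detected) summed to 391.8, 398, 464 and 352 CPM in T29-1 Cre replicates 1 to 4. In WT the sum was 402 to 429 CPM. As for St6gal2, T29-1 Cre replicate 3 was highest and replicate 4 lowest. Of the 12 lists, choroid plexus was the other with this order. The share of all tested genes with this order was not counted, so nothing is read from the match. The match was partial. T29-1 Cre replicate 1 lay below replicate 2 for the dentate markers and above it for St6gal2. In WT the dentate sum was highest in replicate 2 and St6gal2 in replicate 1. Choroid plexus markers (5 of 5 detected, 2 tested) summed to 25.5, 35.0, 51.1 and 24.5 CPM in T29-1 Cre replicates 1 to 4. In WT the sum was 21.7 to 26.7 CPM. Its differences came mainly from 1 gene, Ttr, a thyroid hormone carrier. Ttr was at 3.89, 11.5, 26.9 and 2.81 CPM in T29-1 Cre replicates 1 to 4 and 1.085 to 4.37 CPM in WT. Kl was steady at 19.85 to 22.5 CPM over all libraries, and Folr1, Aqp1 and Kcnj13 were under 1 CPM in each. The part of the dentate and choroid plexus markers in the spread of St6gal2 was not tested. Without T29-1 Cre replicate 3 the log2 fold change of St6gal2 was 1.73, and without T29-1 Cre replicate 4 it was 1.94. Excitatory neuron markers (6 of 6) summed to 7595 to 8236 CPM in T29-1 Cre and 8056 to 8324 CPM in WT, so the defining markers of the labelled tissue were present, and 0 genes of any of the 12 marker lists were called.

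St6gal2, which this same contrast had chosen, had a far wider gap between the groups than the genes with the most similar pattern. The gap was measured as the lowest T29-1 Cre library minus the highest WT library in log2 CPM, over 8 libraries, and taken for the 14150 genes that averaged 1 CPM or more. It was 1.39 for St6gal2, followed by 0.24 for Rsph10b, 0.14 for Grip2, 0.14 for Gm21769, 0.11 for Mybl1 and 0.10 for Klhdc8a. T29-1 Cre libraries lay wholly above WT libraries for 108 of the 14150 genes, and for 0.844% of all tested genes. Rsph10b, a gene of the axonemal radial spoke, was at 2.88 ± 0.146 CPM in T29-1 Cre and 2.08 ± 0.143 CPM in WT (SD, n = 4 each). Grip2, a scaffold of AMPA receptors, was at 15.8 ± 0.0840 CPM in T29-1 Cre and 13.5 ± 0.621 CPM in WT (SD, n = 4 each). St6gal2 was chosen by this contrast and the other genes were picked for the gap. The gap is therefore a description, and nothing is read from the place of St6gal2.

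The protein-coding genes beside St6gal2 were barely expressed. On the side before its start the nearest is Slc5a7, the choline transporter of cholinergic neurons, at a distance of 1146347 bases. Slc5a7 was at 0.628 ± 0.159 CPM in T29-1 Cre and 0.715 ± 0.167 CPM in WT (SD, n = 4 each), and its log2 fold change was -0.19 (SE 0.272, edgeR adjusted p = 0.998). On the other side Vmn2r118, a vomeronasal receptor gene at 75788 bases, had at most 1 read in any library.

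The rest of the sialylation machinery was examined through 10 lists of 82 distinct genes, of which 75 were tested. None was called (edgeR adjusted p = 0.998 for every gene named here), 3 had an unadjusted p under 0.05, and DESeq2 and limma-voom also called 0. The median log2 fold change over the lists was 0.01.

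Enzymes of the other sialic acid linkages come first. The 6 alpha-2,3 sialyltransferases had a median log2 fold change of -0.01. The smallest p among them were for St3gal6 (0.14, SE 0.105), at 8.59 ± 1.02 CPM in T29-1 Cre and 7.81 ± 0.687 CPM in WT (SD, n = 4 each), and St3gal3 (-0.06, SE 0.0658). The 6 alpha-2,8 sialyltransferases all had a higher value in T29-1 Cre, with a median of 0.08, where 49.7% of all tested genes had a higher value. St8sia6 was at 0.28 (SE 0.147), with 6.12 ± 1.10 CPM in T29-1 Cre and 5.05 ± 0.806 CPM in WT (SD, n = 4 each). St8sia2, a polysialyltransferase of developing neurons, was at 0.25 (SE 0.155).

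None of the genes that make, carry and remove sialic acid was called either. The median was -0.02 for 6 genes of supply and transport, among them Nans, the sialic acid synthase (-0.07, SE 0.0726), and Slc17a5, which exports sialic acid from lysosomes (0.05, SE 0.0742). It was -0.05 for 4 sialidases, with the lysosomal Neu1 at -0.10 (SE 0.0591) and Neu2, at 0.381 ± 0.201 CPM in T29-1 Cre and 0.498 ± 0.158 CPM in WT (SD, n = 4 each), at -0.36 (SE 0.374).

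The acceptor glycans of the alpha-2,6 enzymes are built by other Golgi enzymes. The median was -0.03 for 7 genes of galactosylation, the UDP-galactose transporter Slc35a2 included (B4galt5 -0.06, SE 0.0553, and Slc35a2 -0.08, SE 0.0763). It was 0.03 for 14 genes of N-glycan trimming and branching (Man1c1 0.10, SE 0.0556, and Mgat4a 0.09, SE 0.052). It was also 0.03 for 19 genes of O-glycan initiation and core 1, where Galnt13 was at 0.19 (SE 0.0718) and Galnt7 at 0.18 (SE 0.0837). Galnt13, which starts O-glycans in neurons, was at 23.3 ± 0.533 CPM in T29-1 Cre and 20.3 ± 2.03 CPM in WT (SD, n = 4 each). The median of 10 ganglioside genes, 7 of them also on other lists, was 0.01, with St8sia1 (GD3 synthase) at 0.09 (SE 0.0697) and St8sia5 at 0.08 (SE 0.0503).

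The last lists concern what happens to the enzymes and their products. Bace1, a protease known to cleave St6gal1 protein, was at 122 ± 3.97 CPM in T29-1 Cre and 116 ± 6.21 CPM in WT (SD, n = 4 each; log2 fold change 0.08, SE 0.051). Bace2 was at 3.99 ± 1.34 CPM in T29-1 Cre and 2.86 ± 0.322 CPM in WT (SD, n = 4 each; 0.48, SE 0.221). The median of these 5 protease genes was 0.03. That of 5 tested lectins that bind sialic acid was -0.02, with Mag of myelin at -0.09 (SE 0.0757) and Cd33 at 0.15 (SE 0.154).

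**Figure D5:**
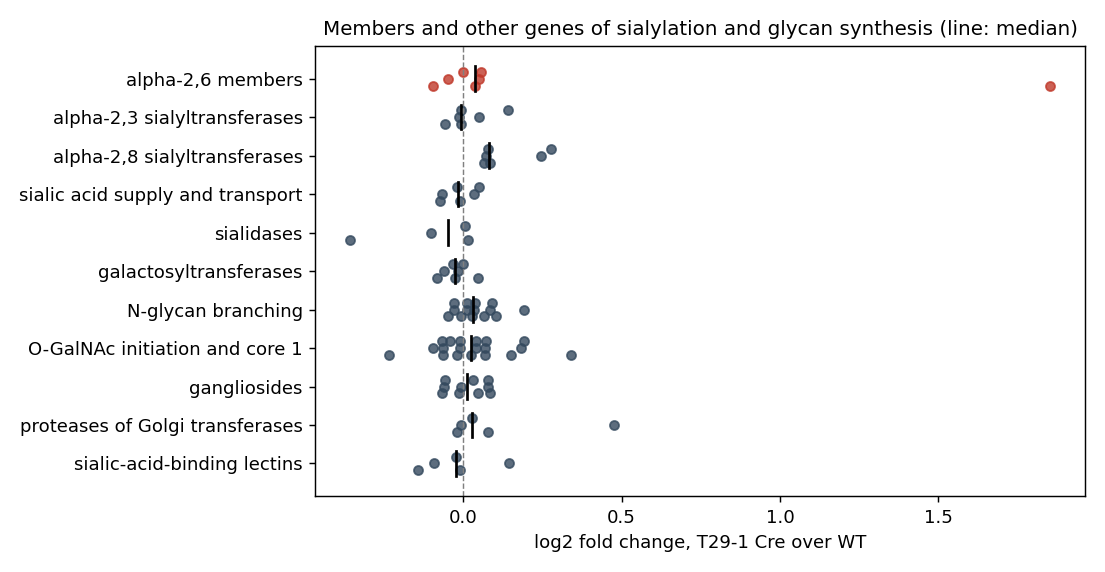
Log2 fold change in T29-1 Cre over WT of the 7 tested alpha-2,6 members (top row) and of the tested genes of 10 lists of sialylation and glycan synthesis, with 1 point per gene and a line at each median. St6gal2, at 1.85, lies apart from all other points, whose values run from -0.36 (Neu2) to 0.48 (Bace2).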

How the data were processed

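Per the labels' protocols, poly(A) RNA of hippocampus was made into directional libraries and sequenced as paired-end reads of 150 bp on 1 lane. The submitters' processing notes name STAR 2.6.1d, featureCounts, edgeR 3.11 and GRCm38. Not given in the sources used here are the annotation and the strand setting of the counting. The authors deposited raw read counts per gene name, and a table with log2 fold change, mean CPM, p-value and a signed fold change that is a score rather than a ratio. Totals were 23358289 to 27543742 counts in T29-1 Cre libraries and 23694841 to 30882631 in WT libraries, and every 2 libraries of a genotype differed by more than counting noise (chi-square over degrees of freedom, 3.32 to 19.2).

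Counts were analysed in R 4.3.3 with edgeR 4.0.16: filterByExpr (minimum count 10, minimum total 15), TMM scaling, the quasi-likelihood F test and Benjamini-Hochberg adjustment over all 15996 tested genes. The SE was obtained as the absolute log2 fold change over the root of F. Log2 CPM uses a prior count of 2. Exon lengths come from GENCODE M21 on GRCm38, which may differ from the authors' annotation. Alternatives were DESeq2 1.42.0, limma-voom (limma 3.58.1), robust edgeR, RLE, upper-quartile and total-count scaling, 2 other filters, a block on the replicate number, a stricter threshold, each library left out and 2 other lengths. Nothing in the labels says that each library is a separate animal, and p-values then reflect only the spread between samples, which may be technical. Named were all members, the 2 genes of each list with the smallest p, and the 5 genes with the widest gap. Members and lists were chosen with earlier results of these data known.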

Additional observations from a re-analysis of the deposited data

Results flagged for a closer look

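Of 18 groups of 4 libraries screened (7 members and 2 shares of St6gal2, in each genotype), 1 held a library far from the other 3, where chance gives about 1 in 20. It was St6galnac6 in WT, where replicate 4 was at 7.08 log2 CPM and the other WT libraries at 6.884 to 6.915. This library also stood apart on the first principal component of all genes, and its part in the level of St6galnac6 was not tested.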

How the results depend on the processing

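The log2 fold change of St6gal2 was 1.73 to 1.94 over 17 alternatives, both limits coming from leaving out 1 library. These refit the contrast that chose the gene, so nothing is read from its calls in them. No relative was called in any of them. St6gal1, St6galnac4 and St6galnac6 kept their sign (0.01 to 0.06, 0.03 to 0.08 and -0.07 to 0.00). Among all genes tested, 2 were called without the low-count filter, and 2 with the replicate block, in both cases St6gal2 and Ttr; the cause was not tested. None of the 82 list genes was called in any alternative. St6galnac5 was at -0.00556 with upper-quartile scaling and -0.000263 with no filter, and leaving out 1 library gave -0.0196 to 0.0386. Leaving out 1 library gave -0.200 to 0.0105 for St6galnac2 and -0.000301 to 0.102 for St6galnac3. With the median length of coding transcripts, which moved St6galnac3 and St6galnac6 most, St6gal2 ranked 4 among the members in T29-1 Cre. It was nearly level there with St6galnac3, at 25.4 against 25.5 CPM per kb. The share of St6gal2 in both St6gal genes was 78.8% in T29-1 Cre and 51.7% in WT by this length. Same-numbered libraries of the genotypes did not deviate together (correlations of -0.0732 to 0.0535 across genes, 2 of 8 libraries correlating best with their own number), so the numbers are not taken as pairs. With the block St6gal2 was at 1.85. St6galnac2, with at most 106 reads in a library, is the member whose difference depth limits most.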
